A study of Homo sapiens with 8 samples.

Results

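The 7 genes described here, ULBP1, ULBP2, ULBP3, RAET1G, RAET1L, MICA and MICB, encode ligands of NKG2D, an activating receptor of natural killer cells and of cytotoxic T cells. They were taken by symbol from the authors' deposited tables, in which they are 7 of 18937 genes. They were selected on their log2 fold changes against the DMSO vehicle, which were already known, so those changes are given as a description without a p-value, and nothing is read from how many of them passed the test.

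NKG2D binds stress-induced cell-surface proteins that are distant relatives of MHC class I heavy chains. MICA and MICB span the membrane and lie within the MHC. ULBP1, ULBP2, ULBP3 and the RAET1L product (ULBP6) are held by a lipid anchor, and the RAET1G product (ULBP5) can span the membrane. Healthy epithelium usually carries little of these proteins, while infection, DNA damage, endoplasmic reticulum or amino acid stress and transformation are known to bring them out. Surface proteases can cut them off again.

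The RNA came from HT29, a long-established line of human colorectal adenocarcinoma cells. Each of 4 groups had 2 libraries. Cells of the control group received the vehicle, 0.1% DMSO. The treated groups received 10 µM of ICG-001, 1.5 µM of CWP232228 or 0.3 µM of YB-0158. ICG-001 is a small molecule known to bind the coactivator CREBBP. Treatment lasted 48 h, but 49 h in the second replicates of ICG-001 and CWP232228. All results come from this 1 cell line, and each compound was given at 1 dose, with 3 different doses. Whether replicates were separate cultures is not stated in the labels. A p-value here therefore reflects library-to-library spread alone, and this may be technical. In RNA from whole cultures, fewer cells with a transcript and less of it per cell cannot be told apart.

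The libraries held between 29071547 and 58489118 estimated reads. All 10 markers of colon epithelium passed the low-count filter, with summed levels between 11228 and 17226 CPM (counts scaled to library size with TMM) per library. Of 15 leukocyte markers 3 passed the filter, CD68 being the highest with a mean of 5.45 CPM over the libraries. Another 7 were at 0 in every library, among them CD3E and NKG7, and PTPRC, which marks all leukocytes, reached at most 1 count. The summed level of the 15 markers was 13.8 to 16.1 CPM in DMSO and 7.10 to 7.40 CPM with ICG-001. It was 10.6 to 11.9 CPM with CWP232228 and 8.15 to 10.2 CPM with YB-0158. Of 9 fibroblast markers 2 passed the filter, with summed levels of 4.41 to 6.30 CPM per library. Of 7 endothelial markers 2 passed it, with summed levels of 1.38 to 2.99 CPM. The DMSO replicates lay furthest apart. Taken over 11335 genes, their log2 differences had an SD of 0.33, where those of the treated groups had 0.16 to 0.17.

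The 5 ULBP and RAET1 genes lie in 1 cluster on the long arm of chromosome 6, over 152 kb from position 149916878 to 150069095 (GRCh38). MICA and MICB lie within 111 kb in the MHC on the short arm, from position 31399784 to 31511124. The bases before the start sites of 4 clustered genes are shown because these neighbours differed in how far their mRNA moved. ULBP1 rose most with each compound, and RAET1L moved more than ULBP2 and ULBP3 with ICG-001 and YB-0158, though less than ULBP3 with CWP232228. RAET1G, near the limit of detection, is not shown. Each sequence is the 250 bases before the RefSeq start (GRCh38.p14), read 5′ to 3′ on the gene's own strand. Capitals mark matches, on either strand, to TGACG (the core of the cAMP response element), to GGGCGG (the GC box that SP1 binds) and to CCAAT (the CCAAT box).
ULBP1 promoter, chr6:149963693-149963942, plus strand: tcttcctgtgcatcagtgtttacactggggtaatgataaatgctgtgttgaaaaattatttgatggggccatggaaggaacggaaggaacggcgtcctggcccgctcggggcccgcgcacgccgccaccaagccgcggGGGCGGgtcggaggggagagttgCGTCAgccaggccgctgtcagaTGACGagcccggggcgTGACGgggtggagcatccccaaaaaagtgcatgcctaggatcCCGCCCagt
RAET1L promoter, chr6:150025533-150025782, minus strand: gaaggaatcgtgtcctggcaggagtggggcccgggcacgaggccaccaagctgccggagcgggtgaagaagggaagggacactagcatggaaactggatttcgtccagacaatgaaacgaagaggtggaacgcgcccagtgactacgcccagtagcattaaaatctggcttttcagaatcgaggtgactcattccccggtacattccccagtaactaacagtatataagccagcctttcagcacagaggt
ULBP2 promoter, chr6:149941764-149942013, plus strand: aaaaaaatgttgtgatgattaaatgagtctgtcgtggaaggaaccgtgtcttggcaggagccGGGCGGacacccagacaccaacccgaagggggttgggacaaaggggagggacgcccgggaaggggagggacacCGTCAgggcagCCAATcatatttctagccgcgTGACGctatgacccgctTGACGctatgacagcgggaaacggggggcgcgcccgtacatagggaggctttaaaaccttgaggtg
ULBP3 promoter, chr6:150069122-150069371, minus strand: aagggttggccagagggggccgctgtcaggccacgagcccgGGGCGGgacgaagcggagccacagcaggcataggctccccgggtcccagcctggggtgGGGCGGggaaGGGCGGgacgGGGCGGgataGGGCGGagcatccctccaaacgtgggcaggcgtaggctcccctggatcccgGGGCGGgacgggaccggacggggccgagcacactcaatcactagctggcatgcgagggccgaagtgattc

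All 7 genes matched a RefSeq promoter, and 8 motifs were searched on both strands from 250 bases before to 50 after the start, beside all 35116 promoters of that length. TGACG was found in ULBP1 and ULBP2 and in 24.6% of all promoters. ULBP1 held it 3 times, beginning 89, 67 and 51 bases before the start, and ULBP2 held it 3 times, at 115, 83 and 66 bases. As many matches or more were in 1.40% of all promoters. GGGCGG was found in 6 of the 7 genes, RAET1L being the exception, and in 45.0% of all promoters. ULBP3 held it 6 times, which 2.86% of all promoters equalled or exceeded. CCAAT was in 4 of the genes (ULBP2, RAET1G, MICA and MICB) and in 34.6% of all promoters. The heat shock element GAANNTTC was found in MICA and MICB and in 6.77% of all promoters. TGATGNAA, a composite element of C/EBP and ATF factors, was found only in ULBP2, after its start, and in 3.62% of all promoters. The full cAMP response element TGACGTCA, which contains TGACG, the E-box CACGTG and the TCF/LEF letters CTTTGA were in none of the 7, and in 1.85%, 7.26% and 12.9% of all promoters. Such a match is a string of letters and no evidence of binding.

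ULBP1 was almost silent in vehicle-treated cells and rose more than any other of the 7 genes with each compound. It had 1.77 and 0.919 CPM in the DMSO libraries, from 51 and 26 counts. With ICG-001 it had 26.9 and 28.0 CPM, with CWP232228 15.9 and 12.7 CPM, and with YB-0158 24.8 and 25.3 CPM. Every treated library lay far above both DMSO libraries, and the CWP232228 libraries lay below those of the other compounds. The share of all genes whose groups separate in this way is not given here. For each of the 7 genes, separation of the groups is therefore a description alone.

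The log2 fold change of ULBP1 against DMSO was 4.34 (SE 0.23) with ICG-001, a 20.3-fold difference with a 95% interval of 14.1 to 29.2. With CWP232228 it was 3.40 (SE 0.23), or 10.6-fold with an interval of 7.29 to 15.3. With YB-0158 it was 4.21 (SE 0.23), or 18.5-fold with an interval of 12.9 to 26.6. In the authors' deposited table the log2 fold changes were 4.28, 3.30 and 4.16. All 3 comparisons share the same DMSO libraries, and these differed 1.93-fold from each other for ULBP1. Without DMSO replicate 1 the folds became 30.0, 15.6 and 27.3, and without DMSO replicate 2 they became 15.3, 7.94 and 14.0. Ordered from the largest rise, ULBP1 was gene 77 of 16449 with ICG-001, 82 with CWP232228 and 77 with YB-0158.

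RAET1L, the gene of ULBP6, followed at a smaller scale. It had 2.85 and 3.15 CPM in DMSO, 6.04 and 5.92 CPM with ICG-001, 3.74 and 4.04 CPM with CWP232228, and 7.26 and 7.37 CPM with YB-0158. The groups did not overlap, and the CWP232228 libraries lay closest to DMSO. Its log2 fold change was 1.00 (SE 0.13) with ICG-001, 0.38 (SE 0.14) with CWP232228 and 1.29 (SE 0.13) with YB-0158. For CWP232228 this value was 0.17 with an offset for the average transcript length and 0.10 in the authors' deposited table. The deposited FPKM of its libraries (3.54 and 3.80) overlapped those of DMSO (3.02 and 3.57). FPKM is the fragment count scaled to transcript length and library size. The deposited log2 fold changes may be another measure than those here, though the values of ULBP1 lay near each other. For RAET1G with CWP232228 the deposited value was -0.16, against -1.24 here, and for MICB 0.17, against 0.56.

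ULBP2 and ULBP3 moved little. ULBP2 had 5.67 and 5.55 CPM in DMSO, 7.86 and 7.06 CPM with ICG-001, 6.64 and 6.62 CPM with CWP232228, and 7.07 and 6.76 CPM with YB-0158. All treated libraries lay above DMSO, by log2 fold changes of 0.41, 0.24 and 0.30 (SE 0.12 each). ULBP3 had 10.9 and 11.03 CPM in DMSO, 13.8 and 15.2 CPM with ICG-001, 14.9 and 15.8 CPM with CWP232228, and 13.9 and 16.7 CPM with YB-0158. Its treated libraries likewise lay above DMSO, with log2 fold changes of 0.40, 0.49 and 0.48 (SE 0.12 each). With the transcript length offset the CWP232228 value of ULBP3 dropped to 0.18, and its deposited FPKM with CWP232228 (5.31 and 6.80) overlapped those of DMSO (5.71 and 5.08). With the correction for GC content and length the ULBP3 values were 0.77, 0.86 and 0.79. That correction used GENCODE release 29 sequences. There the transcript ULBP3-201 is 988 bases long, against 3111 bases in the authors' quantification, so these corrected values are uncertain.

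MICA moved the other way. It had 18.2 and 22.1 CPM in DMSO, 17.5 and 16.5 CPM with ICG-001, 14.6 and 16.3 CPM with CWP232228, and 14.8 and 14.0 CPM with YB-0158. Every treated library lay below both DMSO libraries, though the DMSO libraries differed 1.21-fold from each other. This separation, too, is a description without the share of all genes beside it. The log2 fold changes were -0.24, -0.38 and -0.49 (SE 0.12 each). With a correction for GC content and length that of CWP232228 became -0.10. With a replicate block added to that correction, the value of ICG-001 became 0.03 and that of YB-0158 -0.24. Without DMSO replicate 2 the log2 fold changes of MICA were -0.11, -0.25 and -0.35.

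RAET1G and MICB stayed near the limit of detection, with 6 to 29 and 14 to 32 counts per library. RAET1G had 0.382 and 0.707 CPM in DMSO, 0.514 and 0.354 CPM with ICG-001, 0.260 and 0.196 CPM with CWP232228, and 0.505 and 0.410 CPM with YB-0158. Both CWP232228 libraries and ICG-001 replicate 2 lay below both DMSO libraries. CWP232228 had a log2 fold change of -1.24 (SE 0.47). Its values with ICG-001 and YB-0158, -0.31 and -0.24 (SE 0.41), changed sign without DMSO replicate 2, to 0.18 and 0.25. MICB had 0.487 and 0.530 CPM in DMSO, 0.477 and 0.448 CPM with ICG-001, 0.911 and 0.587 CPM with CWP232228, and 0.557 and 0.435 CPM with YB-0158. Its highest value, in CWP232228 replicate 1, came from 28 counts, and its log2 fold changes were -0.13, 0.56 and -0.02 (SE 0.35 each). The CWP232228 value was 0.21 without that library. A change of these 2 genes below the width of their intervals was not detectable at this depth.

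**Figure D1:**
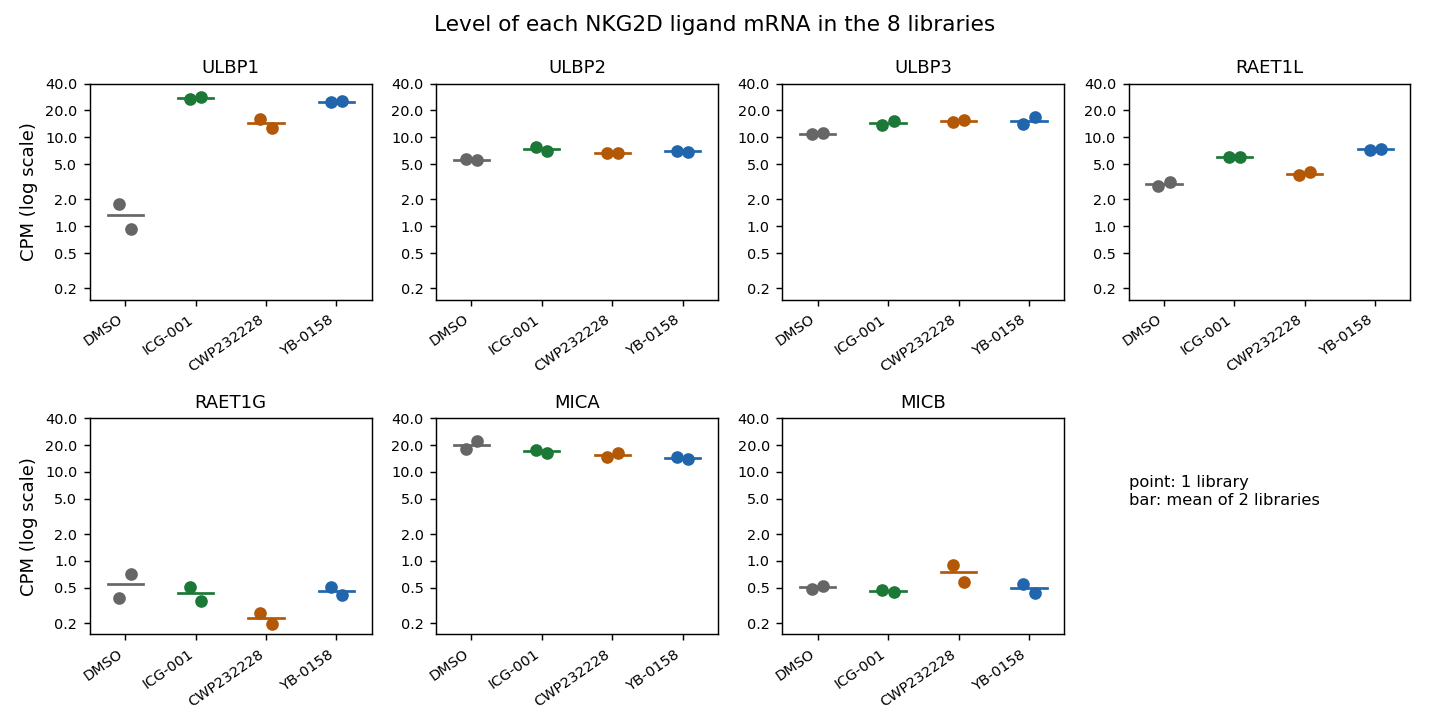
Level of the 7 genes in each library, in CPM on a log axis, by group; points are libraries and bars are the means of 2 libraries. The ULBP1 points of the treated groups lie between 12.7 and 28.0 CPM, above the DMSO points at 0.919 and 1.77 CPM, while MICA stays between 14.0 and 22.1 CPM in all 8 libraries.

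All 7 genes passed the low-count filter. At a Benjamini-Hochberg adjusted p under 0.05 over all 16449 genes tested, 4 members were called with ICG-001 (ULBP1, ULBP2, ULBP3 and RAET1L, all higher), where 48.8% of all genes were called. With CWP232228 3 were called (ULBP1 and ULBP3 higher, MICA lower), beside 42.8% of all genes. With YB-0158 4 were called (ULBP1, ULBP3 and RAET1L higher, MICA lower), beside 43.8% of all genes. Over all 7 members the median log2 fold changes were 0.40, 0.38 and 0.30, where those of all genes were 0.03, 0.04 and 0.02. The members were selected on these changes, so the medians are a description alone. The counts dropped to 2 with ICG-001 and to 1 with CWP232228 under the transcript length offset, to 2 with ICG-001 under DESeq2, to 1 without CWP232228 replicate 2 and to 2 without YB-0158 replicate 2. The call of MICA with CWP232228 held in 5 of 15 alternatives.

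**Figure D2:**
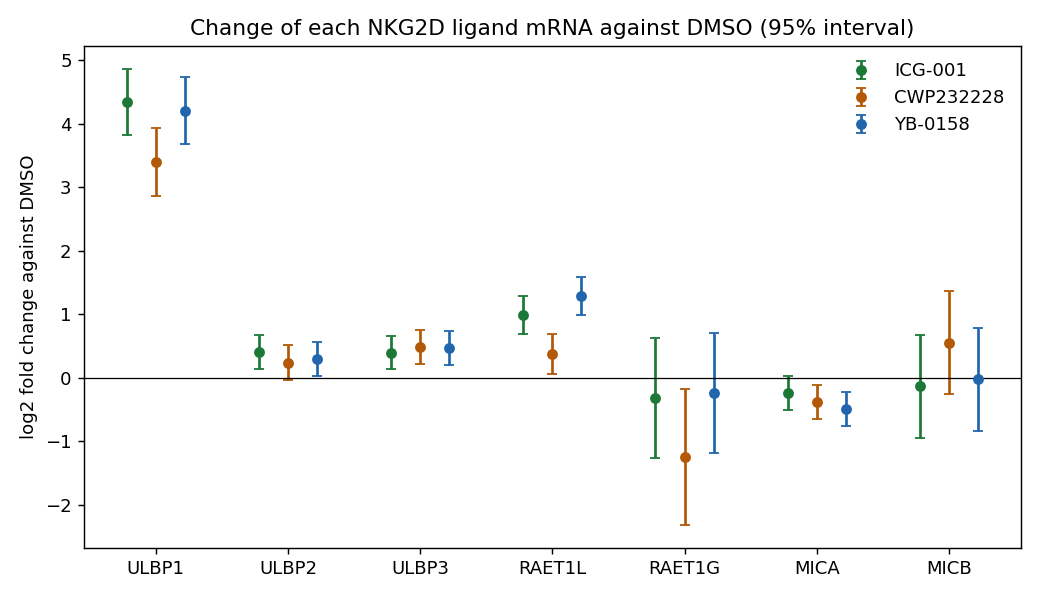
Log2 fold change of each gene against DMSO with its 95% interval from the fitted model, by compound. ULBP1 stands at 3.40 to 4.34, RAET1L at 0.38 to 1.29, and the intervals of RAET1G and MICB are the widest.

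The compounds were also compared with each other, which uses no DMSO level and asks whether the treatments gave different amounts of each ligand mRNA. Since the doses were 10, 1.5 and 0.3 µM, these comparisons are between treatments and not between molecules. Each log2 difference is the gap between the compounds' changes against DMSO, which were known when the genes were selected. The p-values of ULBP1, RAET1L and the other members below are therefore no independent test. ULBP1 was lower with CWP232228 than with ICG-001, with a log2 difference of -0.94 (95% interval -1.34 to -0.55, adjusted p = 0.019 in edgeR). It was higher with YB-0158 than with CWP232228, by 0.81 (interval 0.41 to 1.21, adjusted p = 0.029). Between YB-0158 and ICG-001 the difference was -0.13, with an interval of -0.52 to 0.25 and an adjusted p of 0.97.

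RAET1L was also lowest with CWP232228 among the treated groups, but highest with YB-0158. It was lower with CWP232228 than with ICG-001, by a log2 difference of -0.62 (interval -0.91 to -0.33, adjusted p = 0.026 in edgeR). With YB-0158 it was higher than with CWP232228, by 0.91 (interval 0.62 to 1.20, adjusted p = 0.0054). Between YB-0158 and ICG-001 it differed by 0.29 (interval 0.02 to 0.56, adjusted p = 0.87).

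These were the 2 members called between CWP232228 and ICG-001, beside 6.82% of all genes, and the 2 called between YB-0158 and CWP232228, beside 7.78%. Between YB-0158 and ICG-001 edgeR called none of the 7, beside 0.00608% of all genes, or 1 gene in all. DESeq2 called none there either, and 1 member, RAET1L, had an unadjusted p under 0.05 in edgeR. The intervals of ULBP2, ULBP3 and MICA between any pair of compounds lay within -0.51 and 0.35, and those of RAET1G and MICB were wider.

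Leaving out libraries ended several of these calls while the differences stayed close to their size. Both calls between CWP232228 and ICG-001 were lost in 6 of 8 leave-outs, those of each treated library, with adjusted p-values up to 0.19 in edgeR. The ULBP1 call between YB-0158 and CWP232228 was lost in the same 6 of 8, with adjusted p-values up to 0.26 (range over all leave-outs from 0.00078). That of RAET1L was lost without CWP232228 replicate 1, CWP232228 replicate 2 or YB-0158 replicate 1, with adjusted p-values of 0.060 to 0.068. Over the leave-outs the ULBP1 difference ran from -1.12 to -0.79 for CWP232228 against ICG-001 and from 0.66 to 0.98 for YB-0158 against CWP232228. Without a DMSO library, whose replicates lie furthest apart, the same calls held. The RAET1L call between CWP232228 and ICG-001 was also lost with DESeq2 and with the transcript length offset, and held in 6 of 15 alternatives in all. The offset ended both ULBP1 calls too, which held in 8 of 15 alternatives against ICG-001 and in 7 of 15 between YB-0158 and CWP232228. That of RAET1L between YB-0158 and CWP232228 held in 12 of 15.

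Set side by side per length, MICA was the most abundant of the 7 mRNAs in every group and ULBP1 changed its place. In DMSO the deposited FPKM was 21.4 ± 2.48 (SD, n = 2) for MICA, 5.39 ± 0.442 for ULBP3, 5.39 ± 0.0874 for ULBP2 and 3.30 ± 0.390 for RAET1L. RAET1G with 0.624 ± 0.279, ULBP1 with 0.503 ± 0.226 and MICB with 0.481 ± 0.0160 followed and did not differ from each other beyond their spread, and neither did ULBP2 and ULBP3.

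With ICG-001 the FPKM was 18.1 ± 0.395 for MICA and 9.97 ± 0.0138 for ULBP1, which now ranked second. ULBP2 with 7.14 ± 0.717, ULBP3 with 7.004 ± 0.108 and RAET1L with 6.92 ± 0.159 followed without a difference beyond their spread, before RAET1G (0.452 ± 0.126) and MICB (0.416 ± 0.0883). With CWP232228 the order was MICA (16.7 ± 1.38), ULBP2 (6.29 ± 0.0355), ULBP3 (6.06 ± 1.05), ULBP1 (5.11 ± 0.841), RAET1L (3.67 ± 0.185), MICB (0.883 ± 0.227) and RAET1G (0.278 ± 0.0122). ULBP2 and ULBP3 overlapped there, as did ULBP3 and ULBP1. With YB-0158 ULBP1 (9.19 ± 0.0699) again stood second, below MICA (15.4 ± 0.858) and above RAET1L (8.43 ± 0.165). ULBP3 (6.91 ± 0.4996) and ULBP2 (6.59 ± 0.277) did not differ beyond their spread, nor did MICB (0.535 ± 0.124) and RAET1G (0.473 ± 0.0753).

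Summed over the 7 genes, the FPKM was 35.4 and 38.7 in DMSO, 50.8 and 49.1 with ICG-001, 37.9 and 40.03 with CWP232228, and 48.0 and 47.0 with YB-0158. ULBP1 made up 1.87% and 0.887% of that sum in DMSO, 19.6% and 20.3% with ICG-001, 15.1% and 11.3% with CWP232228, and 19.3% and 19.5% with YB-0158. The part of MICA was 55.4% and 59.7% in DMSO and 31.4% to 44.1% in the treated libraries. TPM summed over transcripts, which are also scaled for length, gave the same rank to all 7 genes in each group.

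**Figure D3:**
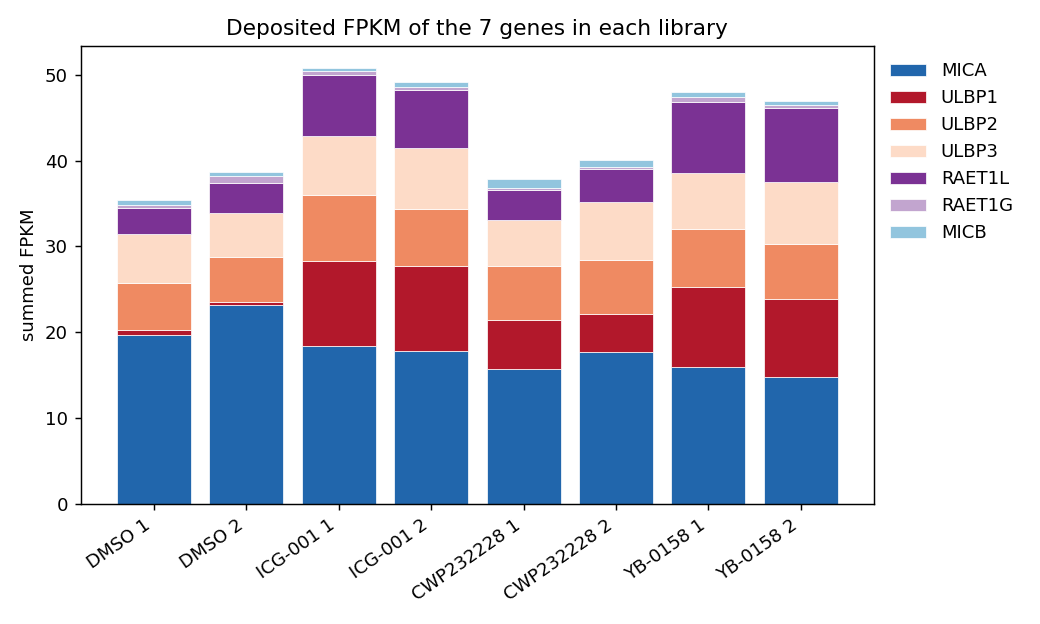
Deposited FPKM of the 7 genes stacked for each of the 8 libraries, from 0. The ULBP1 segment is 0.343 and 0.662 FPKM in DMSO and 4.51 to 9.98 FPKM in the treated libraries, while the MICA segment is largest in every library.

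Reads of these genes are hard to divide, because the ULBP and RAET1 genes are copies of each other. Of the 31-base stretches of RAET1L transcripts, 45.4% also occurred in another gene, 41.8% in ULBP2. For ULBP2 the share was 44.2%, for RAET1G 26.7%, for ULBP3 17.4%, for MICA 15.7%, for MICB 14.2% and for ULBP1 14.0%, mostly with the pseudogene RAET1K. The split between ULBP2 and RAET1L is thus uncertain, and ULBP1 had the smallest share, just below that of MICB. These shares were counted on GENCODE release 29 sequences. There ULBP3-201 is 988 bases long, against 3111 bases in the authors' quantification, so the ULBP3 share does not cover all of its quantified sequence. RAET1G overlaps the antisense gene RAET1E-AS1, and MICA overlaps HCP5 on the same strand. The library kit does not mark strand, so reads of RAET1G and of RAET1E-AS1 cannot be told apart where they overlap. The mean count of MICA summed here was 0.874 of that in the authors' deposited table, and those of the other members 0.969 to 1.00 of it.

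Only ULBP3, RAET1L and MICA had 2 or more transcripts with enough reads for a test of transcript usage, which asks whether a gene's reads moved between its transcripts. ULBP1 and ULBP2 have 1 annotated transcript each. RAET1L-202 held most RAET1L reads in every library, and RAET1L-201, a shorter protein-coding form, held the rest. RAET1L-201 had 10.9 and 20.6 estimated reads in DMSO (13.3% and 23.1% of the gene), 82.9 and 70.7 with ICG-001 (25.2% and 28.1%), and 105 and 82.7 with YB-0158 (25.2% and 28.7%). Both CWP232228 libraries had 0 reads of it, of 115 and 124 for the gene, which allows a share of up to 2.61% and 2.42% by counting error alone.

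The usage of RAET1L differed between CWP232228 and DMSO, with a Simes adjusted p of 0.040 in edgeR's diffSpliceDGE, beside 3.58% of all genes tested. The gene-level F test gave an adjusted p of 5.0e-04. The share of all genes called by that F test is not given here, and it was not repeated under the alternatives. In diffSpliceDGE's test of single transcripts, RAET1L-201 had an adjusted p of 0.063 with CWP232228. With ICG-001 and with YB-0158 RAET1L was not called, with a Simes adjusted p of 1 beside 3.88% and 3.2% of all genes called. The Simes call held in 2 of the 10 alternatives that keep this test, with Simes adjusted p-values from 0.023 to 0.35 over them. It was lost without a transcript filter (adjusted p = 0.071) and in 7 of 8 leave-outs, those of every library but DMSO replicate 1. Of the 31-base stretches of RAET1L-201, 40.3% occur in no other gene, so its estimate depends in part on how shared sequence was divided.

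**Figure D4:**
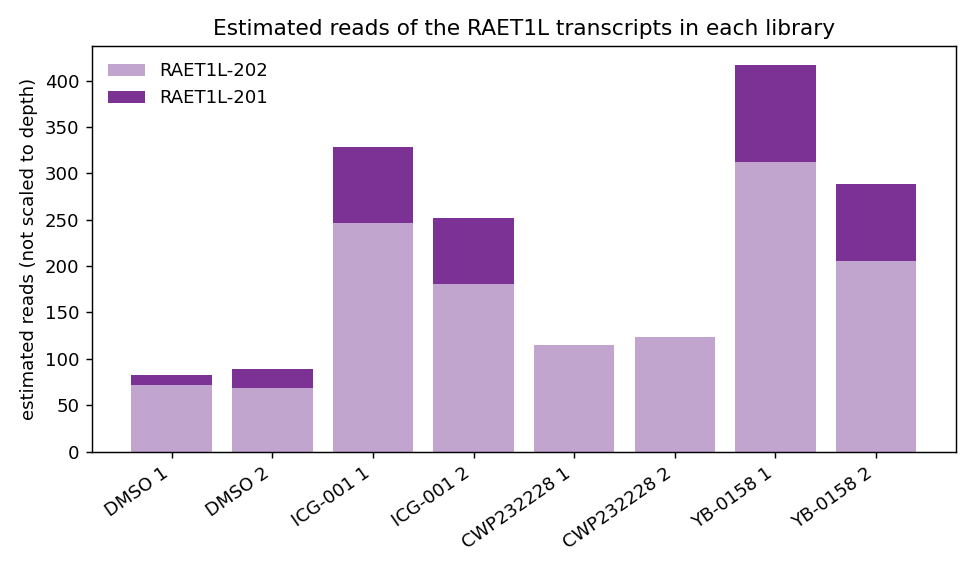
Estimated reads of the 2 RAET1L transcripts in each library, stacked from 0 and not scaled to depth. RAET1L-201 is at 0 in both CWP232228 libraries and between 10.9 and 105 reads in the others.

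ULBP3 and MICA showed no called change of usage in edgeR's diffSpliceDGE. ULBP3-201 held 90.4% to 100% of ULBP3 reads, and the Simes adjusted p was 1 with each compound. MICA-209 held 92.1% to 100% of MICA reads, with Simes adjusted p-values of 0.62, 0.43 and 0.41. Of the few MICB reads, those of MICB-203, an annotated retained intron, made up 56.9% and 43.3% in DMSO and 71.2% and 78.5% with CWP232228, from 6.39 to 20.2 reads.

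Genes whose pattern over the 8 libraries lay closest to that of ULBP1 were found by the root mean square difference of log2 CPM centred on the DMSO mean. BEST1, which encodes bestrophin, an anion channel, was nearest with 0.15. It had 0.869 and 0.636 CPM in DMSO, 16.1 and 15.3 CPM with ICG-001, 8.69 and 6.82 CPM with CWP232228, and 16.2 and 14.7 CPM with YB-0158. Next came the glycine transporter gene SLC6A9 with 0.46, the nebulin relative NEBL with 0.69, the trypsinogen gene PRSS1 with 0.69 and the netrin receptor gene UNC5B with 0.70. The same 5 genes were nearest with a prior count of 0.5 in place of 2. All 5 had their lowest treated levels with CWP232228, as ULBP1 had. This follows from their choice by likeness to ULBP1 over these same libraries, and is no separate result. Likeness of this kind is a description over libraries that share groups and depth.

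**Figure D5:**
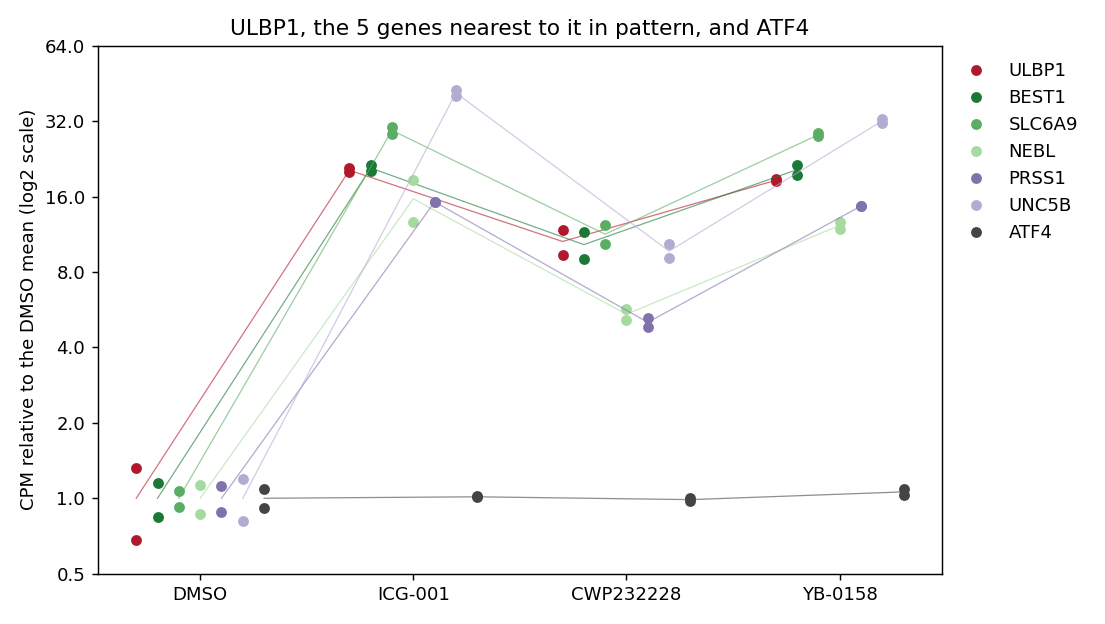
CPM of ULBP1, of the 5 genes nearest to it in pattern and of ATF4, relative to the mean of the DMSO libraries on a log2 axis; points are libraries and lines join group means. The genes other than ATF4 rise with each compound and least with CWP232228, while ATF4 stays level. The 5 genes share this order with ULBP1 by the way they were chosen.

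The transcription factor ATF4 and the RNA-binding protein RBM4 have been reported to support ULBP1 expression. ATF4 mRNA had 373 and 443 CPM in DMSO, 415 and 412 CPM with ICG-001, 408 and 398 CPM with CWP232228, and 445 and 421 CPM with YB-0158, all treated libraries lying between the DMSO libraries except YB-0158 replicate 1. Its log2 fold changes of 0.02, -0.02 and 0.08 were not called (adjusted p = 0.87, 0.88 and 0.46 in edgeR). They were called only with the correction for GC content and length, and for YB-0158 also without DMSO replicate 2. ATF4 is controlled largely at translation, which these data do not measure. RBM4 was called lower with ICG-001 and CWP232228, by log2 fold changes of -0.31 and -0.22, and with YB-0158 the value was -0.18 (adjusted p = 0.0072, 0.038 and 0.066). Its CWP232228 call held in 3 of 15 alternatives.

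Genes known to respond to ATF4 rose almost without exception, a rise known from earlier results of these libraries. Of 20 listed genes 18 were tested, and 18, 17 and 18 rose with ICG-001, CWP232228 and YB-0158, beside 24.8%, 21.6% and 21.7% of all genes called higher. None of the 18 was called lower, and CEBPB with CWP232228 was the exception to the rise, at -0.12 (adjusted p = 0.42). The median log2 fold changes were 2.08, 1.00 and 2.07. SLC6A9 rose by 4.88, 3.501 and 4.82 on the log2 scale. CHAC1, a glutathione-degrading enzyme, rose by 3.83, 2.30 and 3.68. The edgeR adjusted p-values of both were 8.5e-05 or less. SLC6A9, CHAC1 and FGF21 were named because they were called with all 3 compounds, so adjusted p-values under 0.05 follow from that choice. DDIT3, which encodes the stress factor CHOP, rose by 1.76, 0.52 and 1.88, its CWP232228 call holding in 6 of 15 alternatives. FGF21, a stress hormone gene, had 0 counts in both DMSO libraries and 43 and 28, 8 and 7, and 31 and 12 counts with the 3 compounds. Set against a DMSO floor of 3 counts per library, or 0.105 CPM on average, it was at least 6.89-, 2.32- and 4.03-fold higher. With FGF21 at these bounds the list's median was 1.95 for YB-0158 and the same for the others.

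Among 22 reported regulators of NKG2D ligand mRNAs the changes went both ways. With ICG-001 8 rose and 8 fell, with CWP232228 8 rose and 6 fell, and with YB-0158 9 rose and 5 fell, where 24%, 21.2% and 22.1% of all genes were called lower. Their median log2 fold changes of 0.04, 0.02 and 0.11 lay near those of all genes. ATM and DICER1 were named because they were called with each compound, so adjusted p-values under 0.05 follow from that choice. The kinase gene ATM acts in the DNA damage response. It rose by 1.24, 1.33 and 1.01 on the log2 scale (edgeR adjusted p = 0.0044, 0.0051 and 0.012). ATM had 30.0 and 17.0 CPM in DMSO and 46.0 to 62.2 CPM in the treated libraries. Its YB-0158 call held in 12 of 15 alternatives and was lost with the transcript length offset. DICER1, the microRNA processing enzyme, rose by 1.45, 1.63 and 1.48 (edgeR adjusted p = 0.030, 0.024 and 0.031), while its DMSO libraries differed 2.64-fold. The DICER1 calls with ICG-001 and CWP232228 were lost with the correction for GC content and length, and that with YB-0158 when the replicate block was added to it. Leaving out either library of the compound tested also ended each call, and leaving out either YB-0158 library ended that with ICG-001, as either ICG-001 library did for YB-0158. With CWP232228 the count of regulators called was 9 under the transcript length offset, in place of 14.

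Of 10 genes linked to shedding of the ligands, 8 were tested: 4 rose and 2 fell with ICG-001 and with YB-0158, and 3 rose and 1 fell with CWP232228. Of all genes, 24.8%, 21.7% and 21.6% were called higher and 24%, 22.1% and 21.2% lower in these comparisons. The medians were 0.43, 0.55 and 0.08 in that order. ADAM10, a protease that cuts MICA and ULBP2 from the surface, rose by 0.71, 0.69 and 0.70 on the log2 scale with ICG-001, CWP232228 and YB-0158 (edgeR adjusted p = 0.0066, 0.010 and 0.0084). ADAM9 rose by 0.74, 0.68 and 0.85. The DMSO libraries differed 1.43-fold for ADAM10 and 1.38-fold for ADAM9. ADAM17 rose by 0.36 and 0.39 with ICG-001 and YB-0158 and had 0.27 with CWP232228 (edgeR adjusted p = 0.030, 0.023 and 0.088), its ICG-001 call holding in 6 of 15 alternatives. MMP14, a membrane-bound metalloprotease, fell, with log2 fold changes of -1.17, -0.59 and -0.94, and TIMP2, a metalloprotease inhibitor, rose by 1.13, 0.47 and 1.04. With CWP232228 the calls of ADAM9 and MMP14 held in 11 of 15 alternatives each and that of ADAM10 in 12. Under the transcript length offset 1 of these genes was called with CWP232228, in place of 4.

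The receptor side was not expressed in these cells at a testable level. None of KLRK1, which encodes NKG2D, and its adaptors HCST and TYROBP passed the low-count filter. KLRK1 had 0 to 12 counts and HCST 1 to 5 counts per library.

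Ligands of other natural killer cell receptors were mixed. Of 16 listed genes 13 were tested, and 5 rose and 3 fell with ICG-001 and with CWP232228, while 4 rose and 2 fell with YB-0158. Over all genes 24.8%, 21.6% and 21.7% were called higher and 24%, 21.2% and 22.1% lower. With CWP232228 the count was 5 in place of 8 after the correction for GC content and length. PVR, a ligand of the receptors CD226 and TIGIT, rose from 170 and 172 CPM in DMSO to 388 and 381 CPM with ICG-001, 265 and 246 CPM with CWP232228 and 405 and 404 CPM with YB-0158. Its log2 fold changes were 1.17, 0.58 and 1.24 (edgeR adjusted p = 1.3e-05, 9.2e-04 and 1.3e-05), called in all 15 alternatives with each compound. NCR3LG1, the ligand of NKp30, rose by 1.18, 1.04 and 1.11, with calls that held in 12, 6 and 11 of 15 alternatives. The DMSO libraries of NCR3LG1 differed 2.19-fold, with 21.2 and 9.69 CPM. CD58, the ligand of CD2, rose by 0.83, 0.74 and 0.58. PVR, NCR3LG1 and CD58 were likewise named because they were called with each compound. HLA-E, which the inhibitory receptor NKG2A reads, fell, with log2 fold changes of -0.26, -0.49 and -0.36 (edgeR adjusted p = 0.012, 0.0016 and 0.0034). Its ICG-001 call held in 10 of 15 alternatives and was lost without either ICG-001 library, without a filter and with the correction for GC content and length.

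Genes within 250 kb of the 2 clusters were counted as well. Around the ULBP and RAET1 genes 12 other genes were tested, and 4 were called with each compound, where 48.8%, 42.8% and 43.8% of all genes were called with ICG-001, CWP232228 and YB-0158. These were LATS1, NUP43 and LRP11, higher by 0.39 to 0.94 on the log2 scale, and an antisense transcript that fell, with values of -2.13, -1.44 and -1.89, all 4 named after their values were seen. RAET1E, the remaining protein-coding gene of the family (ULBP4), was not called, with log2 fold changes of -0.78, -0.78 and -0.81 (edgeR adjusted p = 0.085, 0.10 and 0.083), and was likewise named afterwards. Around MICA and MICB 30 other genes were tested, of which 13, 16 and 9 were called, beside the same shares of all genes, and 12, 13 and 8 of these were lower, beside 24%, 21.2% and 22.1% of all genes.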

How the data were processed

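RNA-seq of 8 HT29 libraries in 4 groups was analysed, with groups and replicate numbers from the sample titles. GRCh38, Salmon 1.3.0, fastp and DESeq2 appear in the submitters' processing notes, which assign them no steps. The authors deposited estimated counts and TPM for every transcript of a library, per the file headers in Salmon's format. The authors' deposited tables give per gene a mean signal (normalized counts), a log2 fold change, a p-value and FPKM per library. The transcriptome release is not given in the sources used here.

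Of 228754 transcripts 204677 (89.5%) matched GENCODE release 29; the rest held 1.54% to 1.85% of reads and were not used here. Estimated counts were summed per gene and rounded, and 16449 genes were tested in edgeR 4.0.16 (R 4.3.3, limma 3.58.1) with TMM, filterByExpr and the quasi-likelihood test, all groups in 1 model with 4 residual degrees of freedom. Every adjusted p is Benjamini-Hochberg over all genes tested. Transcript usage was tested with diffSpliceDGE. DESeq2 1.42.0, other scalings, no filter, a replicate block, a GC content and length correction, a transcript length offset and leave-outs were alternatives. Both tests were also run on simulated data in which few genes changed, in a single group. These settings differ from the data, so that check does not vouch for the calls given here. Promoters come from RefSeq (GRCh38.p14).

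The members and gene lists were chosen with earlier results of these data known. From each list, up to 3 genes called in 1 direction with all 3 compounds were named, by mean size of change. Their adjusted p-values under 0.05 thus follow from that choice. ATF4, DDIT3, RBM4, ADAM10, ADAM17, KLRK1, HCST and HLA-E were named whatever their values. Transcripts with at least 10% of a member in a group's mean were named, as were the 5 genes nearest to ULBP1.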

Additional observations from a re-analysis of the deposited data

How the results depend on the processing

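In 77 results recomputed under up to 15 alternatives each, no called value changed sign. Uncalled values of MICA, MICB, RAET1G and ULBP3 did so under some alternatives. In all, 889 of 1061 recomputed values were classed as unchanged. Among these were 558 of 630 single-gene values, which kept their side of the threshold or stayed within the spread. The rest were mostly counts of genes called, which were classed only by how far the count moved. Members called with ICG-001 against DMSO were 4 in the fit reported, 2 with DESeq2 and 2 with the transcript length offset; with CWP232228 3 and, with that offset, 1. Between CWP232228 and ICG-001 2 were called, 1 with DESeq2, 1 with the replicate block (RAET1L lost in both) and 0 with the length offset. Between YB-0158 and CWP232228 2 were called, 1 with the replicate block and 1 with the length offset (ULBP1 lost in both). RAET1L usage with CWP232228 gave 1 call, and 0 without a transcript filter. With CWP232228, other natural killer ligands called were 8, and 5 after the GC content and length correction, also with the replicate block; shedding genes were 4, and 1 with the length offset; regulators were 14, and 9 with that offset. The cause was not tested.

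Leaving out 1 library at a time, the members called ranged from 3 to 5 with ICG-001, 1 to 4 with CWP232228 and 2 to 4 with YB-0158 against DMSO. They ranged from 0 to 2 for CWP232228 against ICG-001 and for YB-0158 against CWP232228, and stayed at 0 for YB-0158 against ICG-001. RAET1L usage calls ranged from 0 to 1 with CWP232228. The ATF4-responsive list had 17 to 18, 14 to 16 and 18 calls, the regulators 11 to 18, 4 to 15 and 7 to 18, the shedding genes 4 to 7, 2 to 6 and 3 to 7, and the other natural killer ligands 4 to 9, 3 to 8 and 4 to 8, with ICG-001, CWP232228 and YB-0158 in that order. A leave-out fits the lone library of its group with the spread of the other groups.

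Replicate numbers 1 and 2 recur in each group, and nothing says that they pair the libraries. The deviations of same-numbered libraries correlated at -0.21, -0.26 and -0.19 between DMSO and ICG-001, CWP232228 and YB-0158, and at 0.20, 0.51 and 0.12 among the compounds, over 11335 genes. The replicate block took all genes called from 1121 to 653 for CWP232228 against ICG-001, from 1279 to 814 for YB-0158 against CWP232228 and from 1 to 0 for YB-0158 against ICG-001. Counts over all genes moved by more than 1.5 times elsewhere too. For CWP232228 against DMSO 7042 genes were called, 4455 with the GC content and length correction, 4133 with the replicate block added to it and 3367 with the length offset. For CWP232228 against ICG-001 these were 3228, 2946 and 185, and 2126 without a filter. For YB-0158 against CWP232228 they were 3163, 2842 and 228, and 2378 without a filter. For YB-0158 against ICG-001 they were 30, 12 and 0, 268 without a filter, 27 with DESeq2 and 2 with upper-quartile scaling.

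RAET1G and MICB, at 6 to 32 counts per library, have the widest intervals of the 7 genes. The alternative on transcripts of other MHC haplotypes was not run, since the identifiers do not mark them.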
